A study of Mus musculus with 18 samples.

Results

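The 8 renal epithelial transcription factors Pax2, Pax8, Hnf4a, Lhx1, Emx2, Gata3, Tfap2b and Grhl2 were followed by RNASeq in cultured mouse kidney cells. They were taken by their current mouse symbols from the 36528 genes in the count tables, and all 8 were present. Of these, 6 passed the filter on low counts (more than 10 reads in at least 4 samples) that left 15521 genes for testing, and Hnf4a and Lhx1 did not. The cells were primary renal proximal tubulo-interstitial epithelial cells (RPTEC) of C57BL/6 mice, bought from a vendor, and no genetic change, age or number of animals is given for them in the sources used here. There were 6 groups of 3 samples. Cells received vehicle (DMSO), recombinant mouse TWEAK at 100 ng/mL, or the same TWEAK together with NIK SMI1 at 3 μM, and each treatment was harvested at 6 h and at 24 h. No group received NIK SMI1 without TWEAK, so each NIK SMI1 value describes cells that also had TWEAK. TWEAK is a cytokine of the TNF superfamily, and NIK SMI1 is a small molecule inhibitor of NF-κB-inducing kinase (NIK), the kinase on which non-canonical NF-κB signaling depends. The sources used here do not tie the 3 samples of a group to separate animals, so the p-values measure the spread between these samples, which may be technical.

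These factors act at successive steps of nephron formation. Pax2 and Pax8 are paired-box proteins that specify the nephric lineage and persist in its epithelium, and Lhx1 (a LIM homeodomain protein), Emx2 (a homeodomain protein) and Gata3 (a zinc finger protein) are needed for the nephric duct and its ureteric bud. Hnf4a is a nuclear receptor that drives maturation of the proximal tubule. Tfap2b is an AP-2 factor of the distal nephron, and Grhl2 is a grainyhead-like factor that maintains junctions and barrier genes in epithelia. Non-canonical NF-κB signaling ends in RelB/p52 dimers that bind κB sites in DNA, which is why the promoters below were searched for such letters.

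RefSeq (GRCm38.p6) gave 10 promoter windows of 300 bases (250 before to 50 after an annotated start) for 7 of the 8 factors, and none was listed for Grhl2. The windows of Gata3, which rose under TWEAK, and of Pax2 and Pax8, which fell, are printed to show what stands at an annotated start of each. The Gata3 window lies inside the listed span of its gene (chr2:9857078-9887953) and not at its outer end. All printed windows are 5′ to 3′ on the strand of the gene, and capitals mark each match to the κB-like letters GGGNNNNNCC on either strand.
Gata3, chr2:9878551-9878850, minus strand: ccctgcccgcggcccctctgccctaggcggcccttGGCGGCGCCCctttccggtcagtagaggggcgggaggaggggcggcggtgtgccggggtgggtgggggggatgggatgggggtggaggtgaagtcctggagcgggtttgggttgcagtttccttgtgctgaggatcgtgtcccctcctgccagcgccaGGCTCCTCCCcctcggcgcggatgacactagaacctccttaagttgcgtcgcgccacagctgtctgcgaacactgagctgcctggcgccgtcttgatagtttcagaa
Pax2, the first of 3 windows, chr19:44746351-44746650, plus strand: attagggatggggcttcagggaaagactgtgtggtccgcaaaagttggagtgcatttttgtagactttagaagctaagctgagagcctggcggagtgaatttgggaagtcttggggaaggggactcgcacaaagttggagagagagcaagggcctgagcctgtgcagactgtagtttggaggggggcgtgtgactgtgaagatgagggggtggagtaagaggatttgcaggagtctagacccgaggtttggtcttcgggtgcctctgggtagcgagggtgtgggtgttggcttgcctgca
Pax8, chr2:24475550-24475849, minus strand: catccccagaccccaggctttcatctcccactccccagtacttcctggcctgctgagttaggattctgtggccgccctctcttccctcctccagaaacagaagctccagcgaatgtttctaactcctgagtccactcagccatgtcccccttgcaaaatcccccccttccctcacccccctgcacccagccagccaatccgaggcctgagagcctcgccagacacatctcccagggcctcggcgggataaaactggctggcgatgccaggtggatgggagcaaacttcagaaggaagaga
The Gata3 window held 2 matches, both read on the opposite strand, which began 215 and 57 bases before the start (the matched letters are GGCGGCGCCC and GGCTCCTCCC). The printed windows of Pax2 and Pax8 held none. The other 2 Pax2 windows held 1 and 4, of which 3 lay over almost the same bases. Emx2 and Tfap2b had none, Lhx1 had 2, and 1 of the 2 Hnf4a windows had 1. These letters are frequent. At least 1 match was found in 16684 of 32841 mouse promoter windows of the same length (50.8%), beside 5 of the 10 windows of these factors, and a match is a description of the letters and not a binding site. The grainyhead-like letters AACCNGTT stood in 2.09% of all windows and in 1 of the 10 (the second Pax2 window), and the GATA letters AGATAA stood in 11.2% and in 1 (the first Hnf4a window). The TATA box letters TATAAA stood in 13.6% of all windows and in none of the 10. The GC content of the windows ran from 48.3% for Tfap2b to 71.7% for the third Pax2 window, beside a median of 52.7% over all windows.

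Between 18040966 and 51956444 reads per sample were counted, so that 3 reads, the limit that a count of 0 allows, were worth 0.0577 to 0.166 CPM (counts scaled to a common library total). Such limits cover counting error only. The labelled cell type was compared with its defining markers. Epithelial markers (Krt7, Krt8, Krt18, Krt19, Epcam, Cdh1 and Muc1) were all measured and summed to 10510 to 14980 CPM. By contrast, the 12 proximal tubule markers summed to 11.8 to 16.3 CPM, 6 of them failed the filter, Slc22a8 and Miox had no read in any sample, and Slc34a1 had at most 1. The other 6 were measured at low levels, led by Slc5a2 (the sodium-glucose cotransporter SGLT2) at group means of 6.51 to 8.11 CPM and Cubn (cubilin, an endocytic receptor) at 2.14 to 4.35 CPM. The markers of the collecting duct (0 of 10 past the filter) and of the loop of Henle and distal tubule (1 of 7) were also at or near 0. The cells were thus epithelial by their markers, while the genes of the mature proximal tubule were absent or low, and they are called RPTEC here after their label. Other lists held 4 of 8 fibroblast, 1 of 5 endothelial, 3 of 5 podocyte and 1 of 6 leukocyte markers past the filter. Reads of the pancreatic islet genes Ins1, Ins2, Gcg and Iapp, which are not expected in kidney epithelium, set some libraries apart. They summed to 11.2 to 23.9 CPM in all samples at 6 h, in vehicle at 24 h and in TWEAK 24 h sample 1, to 3.47 CPM in TWEAK 24 h sample 3, to 0.214 CPM in TWEAK 24 h sample 2, and to at most 0.0650 CPM in the 3 samples with NIK SMI1 at 24 h. Islet reads and NIK SMI1 at 24 h therefore cannot be told apart by group, and the 24 h values are given below also with TWEAK 24 h sample 2 or sample 1 alone.

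Levels were compared between genes per length, in the authors' RPKM (reads per kilobase of exon, scaled by the reads of the sample). Pax8, Emx2, Grhl2 and Pax2 formed the upper tier. The group means ran from 10.8 to 18.3 RPKM for Pax8, from 11.2 to 14.5 for Emx2, from 10.2 to 15.1 for Grhl2 and from 6.31 to 10.5 for Pax2. The Pax2 mean under vehicle at 24 h was above that of 59.0% of tested genes, and the Pax8 mean there was above that of 72.5%. Tfap2b was lower, at 1.15 to 1.62 RPKM, and Gata3 lower again, at 0.0867 to 0.450 RPKM. Lhx1 stood at 0.0766 RPKM or less and Hnf4a at 0.00865 RPKM or less. These tiers describe the ranges of group means over all treatments, as the plot of levels per length shows. By sample, Gata3 and Lhx1 overlapped under vehicle at 24 h, at 0.0464 to 0.112 and 0.0342 to 0.106 RPKM. Under TWEAK at 24 h Gata3 stood at 0.410 to 0.469 RPKM, above every Lhx1 sample.

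**Figure D1:**
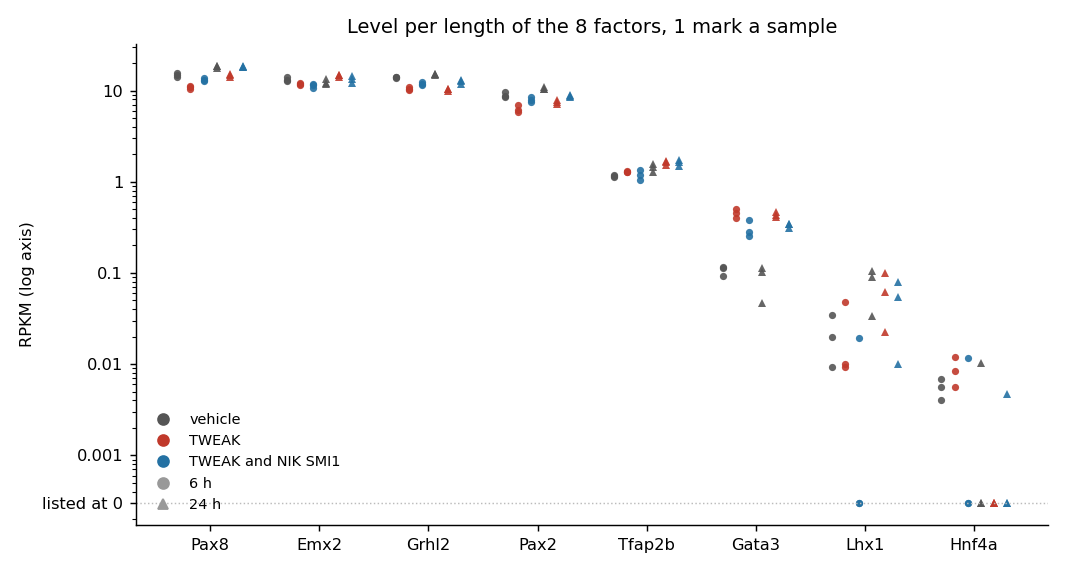
RPKM of the 8 factors on a log axis, 1 mark for each of the 18 samples, coloured by treatment, with circles for 6 h and triangles for 24 h; values listed at 0 are drawn on the dotted line. Pax8, Emx2, Grhl2 and Pax2 lie near 10 RPKM, Tfap2b near 1, Gata3 below 1 with its vehicle samples lowest, and Lhx1 and Hnf4a at a few reads.

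Hnf4a and Lhx1 were close to the limit of detection. Hnf4a (gene 15378, chr2:163506811-163572907, GRCm38.p6 as for all positions here) had 12 reads in all 18 samples together, at most 2 in any of them, and none in 9. Its counts under vehicle at 6 h were 1, 1 and 1, under TWEAK at 6 h 2, 2 and 1, and under TWEAK at 24 h 0, 0 and 0. All lay within the limit that a count of 0 allows, so no change was detectable at this depth. Lhx1 (gene 16869, chr11:84517975-84525534) had 71 reads in all. The counts were 3, 1 and 3 under vehicle at 6 h, 1, 7 and 1 under TWEAK, and 2, 0 and 0 with NIK SMI1. At 24 h they were 11, 6 and 2 under vehicle, 4, 3 and 12 under TWEAK, and 7, 1 and 7 with NIK SMI1. The groups of each time point overlapped, and no test was run on either gene.

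The first comparison asked what TWEAK did to these factors. Under TWEAK, the nephric lineage factors Pax2 and Pax8 and the epithelial factor Grhl2 fell at both time points, Gata3 rose at both, and Emx2 fell slightly at 6 h and rose slightly at 24 h. At 6 h, 5 of the 6 tested factors passed the test (4 fell, 1 rose), where 23.7% of the 15521 genes did (12.0% fell and 11.7% rose, by edgeR's quasi-likelihood test with a Benjamini-Hochberg adjusted p below 0.05). At 24 h, 5 of 6 again passed (3 fell, 2 rose), beside 39.0% of all genes (20.7% fell and 18.3% rose). The median size of the log2 fold change, whatever its sign, was 0.41 over the 6 factors and 0.11 over all genes at 6 h, and 0.40 and 0.16 at 24 h. The changes of Pax2, Pax8 and Grhl2 were decreases of 19.8% to 32.7%, and a rule that also asks for a change above 1.5-fold left only Gata3 at both times. In bulk samples, fewer cells of a type and less RNA per cell cannot be told apart.

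**Figure D2:**
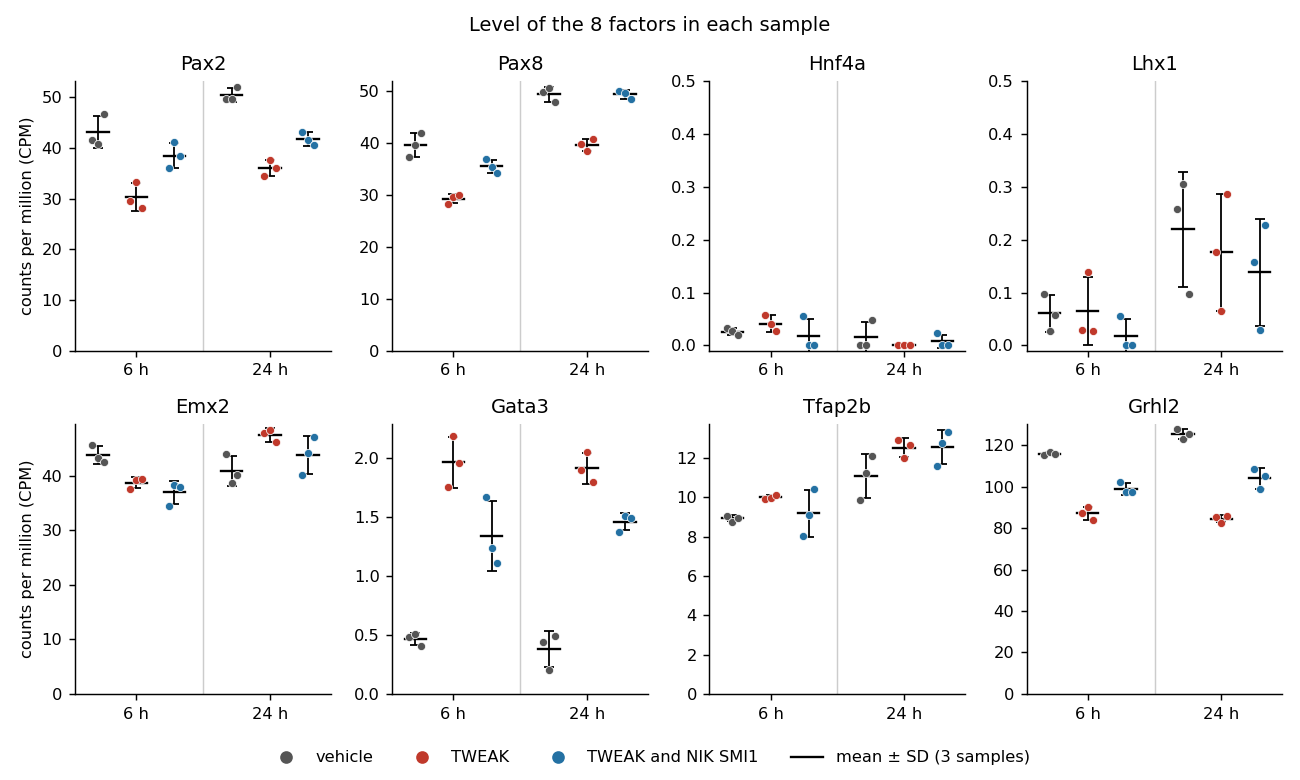
CPM of each factor in each of the 18 samples, by time and treatment, with the mean and SD of the 3 samples of a group as black lines; each panel has its own linear axis. TWEAK samples of Pax2, Pax8 and Grhl2 sit below the vehicle samples of the same time without overlap, those of Gata3 above, and Hnf4a and Lhx1 stay below 0.5 CPM throughout.

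Pax2 (gene 18504, chr19:44746601-44838269) was measured in vehicle at 6 h at 41.6, 40.9 and 46.7 CPM, and under TWEAK at 29.5, 33.4 and 28.1 CPM. It fell by 29.0% (log2 fold change -0.49 ± 0.06 SE, adjusted p = 1.76e-07, edgeR). At 24 h the vehicle samples stood at 49.6, 49.7 and 51.98 CPM and the TWEAK samples at 34.5, 37.6 and 36.0 CPM, so that it fell by 28.3% (-0.48 ± 0.06, adjusted p = 2.39e-07). Every TWEAK sample was below every vehicle sample of its time. The difference between the TWEAK effects at 24 h and 6 h was 0.01 on the log2 scale (95% interval -0.16 to 0.19, adjusted p = 0.958).

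Pax8 (gene 18510, chr2:24420551-24475599) had 37.2, 39.6 and 41.9 CPM under vehicle at 6 h and 28.3, 29.5 and 29.9 CPM under TWEAK. It fell by 25.6% (-0.43 ± 0.05, adjusted p = 4.49e-08). At 24 h it had 49.8, 50.5 and 47.8 CPM under vehicle and 39.9, 38.4 and 40.7 CPM under TWEAK, and it fell by 19.8% (-0.32 ± 0.05, adjusted p = 3.72e-06). Again no sample overlapped. In CPM, which used total counts, the TWEAK level of Pax8 at 24 h (39.7 ± 1.15 CPM, SD, n = 3) was close to its vehicle level at 6 h (39.6 ± 2.34 CPM). The vehicle level itself was higher at 24 h than at 6 h. No test compared TWEAK at 24 h with vehicle at 6 h. The antisense or overlapping gene Gm13415 shares 24998 bases with the Pax8 locus, and it held 740 reads in all against 25168 for Pax8. The counting is not stated to use strand.

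Grhl2 (gene 252973, chr15:37232821-37363569) was the member with the most reads. Its samples lay close together, at 115.4, 116.9 and 115.9 CPM under vehicle at 6 h and at 87.1, 90.2 and 84.2 CPM under TWEAK, and it fell by 24.2% (-0.40 ± 0.04, adjusted p = 1.90e-09). At 24 h the vehicle samples were at 127.9, 122.9 and 125.6 CPM and the TWEAK samples at 85.3, 82.7 and 85.7 CPM, so that it fell by 32.7% (-0.57 ± 0.04, adjusted p = 1.35e-12). The effect was thus greater at 24 h, by -0.17 ± 0.05 on the log2 scale (adjusted p = 0.0402 for the difference, beside 8.91% of all genes called in that comparison). That call is close to the threshold. It was lost when any of 8 single samples was left out, where the adjusted p ranged up to 0.130 (vehicle 6 h samples 2 and 3, TWEAK 6 h samples 1 and 2, vehicle 24 h samples 1 and 3, and TWEAK 24 h samples 1 and 2), and the difference stayed between -0.19 and -0.15.

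Gata3 (gene 14462, chr2:9857078-9887953) was the factor called as risen at both times. Its levels were low, at 0.486, 0.508 and 0.404 CPM under vehicle at 6 h (15, 19 and 21 reads), and 1.75, 2.19 and 1.95 CPM under TWEAK (61, 110 and 74 reads). The rise was 4.32-fold (log2 fold change 2.11 ± 0.23, adjusted p = 2.65e-08). At 24 h the vehicle samples had 0.444, 0.203 and 0.488 CPM (19, 4 and 10 reads) and the TWEAK samples 1.89, 2.06 and 1.79 CPM (43, 96 and 75 reads), a rise of 4.82-fold (2.27 ± 0.26, adjusted p = 4.44e-08). No vehicle sample came near a TWEAK sample. At 6 h, 99.6% of all tested genes had a lower log2 fold change than Gata3. The level reached was still low, since 15.5% of tested genes had a lower RPKM than Gata3 under TWEAK at 6 h, and 4.77% did under vehicle. The effects at the 2 times differed by 0.16 (95% interval -0.59 to 0.91, adjusted p = 0.887), an interval too wide to tell whether they were alike. The 2 genes that overlap its locus in RefSeq held at most 3 reads in any sample.

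Emx2 (gene 13797, chr19:59458690-59465357) changed little, and in opposite directions. At 6 h it had 45.6, 43.2 and 42.5 CPM under vehicle and 37.6, 39.3 and 39.3 CPM under TWEAK, and it fell by 10.6% (-0.16 ± 0.06, adjusted p = 0.0406). At 24 h it had 44.0, 38.7 and 40.1 CPM under vehicle and 47.9, 48.5 and 46.1 CPM under TWEAK, an increase of 15.2% (0.20 ± 0.06, adjusted p = 0.00702). TWEAK samples did not overlap vehicle samples at either time. The difference between the effects was 0.37 ± 0.08 on the log2 scale (95% interval 0.20 to 0.53, adjusted p = 0.00378), and it passed the test with any single sample left out. The decrease at 6 h did not. Its adjusted p was 0.165 without vehicle 6 h sample 1, 0.0566 without vehicle 6 h sample 2, and 0.157, 0.0762 and 0.0546 without TWEAK 6 h samples 1, 2 and 3. The increase at 24 h had an adjusted p of 0.0767 with TWEAK 24 h sample 1 alone and of 0.0436 with sample 2 alone.

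Tfap2b (gene 21419, chr1:19208908-19238845) was the tested factor that passed in no comparison of the reported fit. With scaling by library size alone, its increase with time under vehicle passed (adjusted p = 0.0134, edgeR). At 6 h it had 9.07, 8.77 and 8.95 CPM under vehicle and 9.94, 9.98 and 10.1 CPM under TWEAK, and at 24 h 9.87, 11.3 and 12.1 CPM under vehicle and 12.9, 12.0 and 12.7 CPM under TWEAK. The samples at 6 h did not overlap and those at 24 h did. The log2 fold changes were 0.18 ± 0.09 (95% interval 0.00 to 0.36, adjusted p = 0.142) and 0.19 ± 0.09 (0.01 to 0.37, adjusted p = 0.0859). Without vehicle 24 h sample 3, the difference at 24 h was 0.26 and passed (adjusted p = 0.0378), and over the fits that left out 1 sample it lay between 0.094 and 0.26. In all, 6 of the 6 tested factors had TWEAK samples apart from vehicle samples at 6 h, beside 36.0% of all tested genes, and 5 of 6 did at 24 h, beside 49.7%.

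The second comparison asked how these factors differed when NIK SMI1 was added to TWEAK. Pax2, Pax8 and Grhl2 were higher with NIK SMI1 than with TWEAK alone at both times. At 6 h, 3 of the 6 tested factors were called, all rises, beside 5.34% of all genes called as rises (11.0% in either direction). At 24 h, the 3 called were again rises, beside 10.2% (18.5% in either direction). The samples of 4 of the 6 factors did not overlap at either time (Pax2, Pax8, Grhl2 and Gata3), beside 26.6% of all genes at 6 h and 33.8% at 24 h. This comparison and that of TWEAK with vehicle share the TWEAK samples, so opposite signs in the pair are not independent of each other. For this reason the comparison of TWEAK and NIK SMI1 with vehicle is given beside it.

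**Figure D3:**
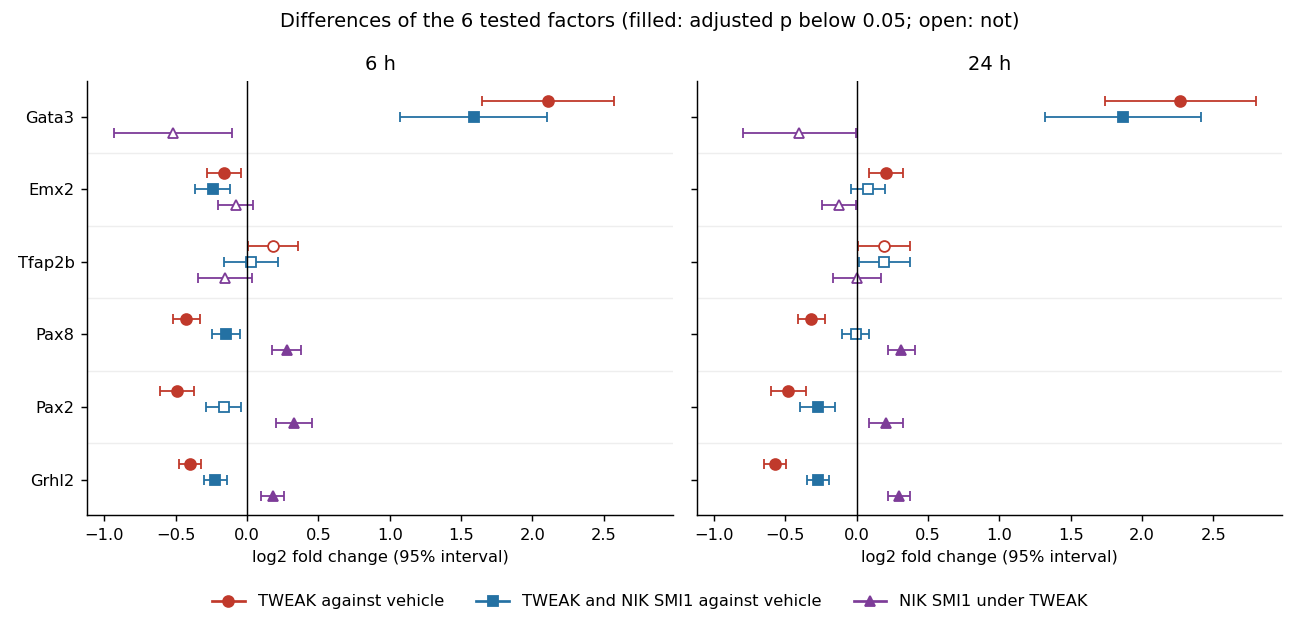
Log2 fold changes of the 6 tested factors with 95% intervals, at 6 h (left) and 24 h (right), for TWEAK against vehicle (circles), TWEAK and NIK SMI1 against vehicle (squares) and NIK SMI1 under TWEAK (triangles); filled marks have an adjusted p below 0.05. Pax8 with NIK SMI1 at 24 h lies at the vehicle level, Pax2 and Grhl2 lie between vehicle and TWEAK, and Gata3 remains far to the right with NIK SMI1.

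Pax8 had 36.8, 35.3 and 34.3 CPM with NIK SMI1 at 6 h, all above the TWEAK samples, and the difference was 0.28 ± 0.05 on the log2 scale (adjusted p = 0.000224). With NIK SMI1 at 24 h it had 49.97, 49.6 and 48.4 CPM, again above all TWEAK samples (0.31 ± 0.05, adjusted p = 9.44e-06). Against vehicle, Pax8 fell by 9.81% at 6 h (adjusted p = 0.0383), whereas at 24 h the difference was -0.01 with a 95% interval of -0.10 to 0.09 (adjusted p = 0.960). The samples of those 24 h groups overlapped. The call at 6 h was lost without vehicle 6 h sample 2 (adjusted p = 0.0609) or sample 3 (0.178), without TWEAK and NIK SMI1 6 h sample 2 (0.107) or sample 3 (0.121), without a filter on low counts (0.0716) and in a fit of the 6 h samples alone (0.1004).

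Pax2 had 36.0, 41.1 and 38.4 CPM with NIK SMI1 at 6 h and 43.2, 41.5 and 40.6 CPM at 24 h, above every TWEAK sample of the same time. The differences from TWEAK were 0.33 ± 0.06 (adjusted p = 0.000403) and 0.21 ± 0.06 (adjusted p = 0.0140). The second call depended on single samples, with an adjusted p of 0.0627 without TWEAK 24 h sample 1 and of 0.0597 without TWEAK and NIK SMI1 24 h sample 1. Against vehicle, Pax2 with NIK SMI1 was lower by 17.3% at 24 h (-0.27 ± 0.06, adjusted p = 0.00113), with no overlap. At 6 h the difference from vehicle was -0.16 ± 0.06 (adjusted p = 0.0707), near the threshold. It passed with no filter on low counts (adjusted p = 0.0355) and without sample 2 of vehicle 6 h (0.0347), of TWEAK 6 h (0.0488) or of TWEAK and NIK SMI1 6 h (0.0351), and it lay between -0.22 and -0.10 with 1 sample left out.

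Grhl2 with NIK SMI1 stood at 102.2, 97.3 and 97.3 CPM at 6 h and at 108.8, 98.8 and 105.0 CPM at 24 h. It was thus above TWEAK by 0.18 ± 0.04 (adjusted p = 0.00187) and 0.30 ± 0.04 (adjusted p = 9.35e-07). It was also below vehicle, by 14.3% at 6 h (-0.22 ± 0.04, adjusted p = 0.000126) and by 17.3% at 24 h (-0.27 ± 0.04, adjusted p = 3.14e-06). All 3 groups were apart from each other at both times. The order of the groups was therefore vehicle, TWEAK and NIK SMI1, TWEAK.

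Gata3 stayed high with NIK SMI1. Its samples had 1.67, 1.24 and 1.11 CPM at 6 h and 1.38, 1.51 and 1.495 CPM at 24 h. All 6 lay below the TWEAK samples of their time and above the vehicle samples. The differences from TWEAK, -0.52 ± 0.20 at 6 h (95% interval -0.94 to -0.11, adjusted p = 0.105) and -0.40 ± 0.19 at 24 h (-0.80 to -0.00, adjusted p = 0.166), did not pass the test. At 6 h the difference was -0.75 with an adjusted p of 0.0498 when TWEAK and NIK SMI1 6 h sample 1 was left out. Against vehicle, Gata3 was 3.01-fold higher at 6 h (1.59 ± 0.25, adjusted p = 4.50e-05) and 3.65-fold higher at 24 h (1.87 ± 0.27, adjusted p = 5.81e-06).

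Emx2 and Tfap2b gave no call for NIK SMI1 under TWEAK with all samples fitted. Emx2 had 34.5, 38.3 and 38.0 CPM with NIK SMI1 at 6 h and 40.1, 44.2 and 47.2 CPM at 24 h, overlapping TWEAK at both times (log2 differences -0.08 ± 0.06 and -0.12 ± 0.06, adjusted p = 0.457 and 0.143). The difference at 24 h was -0.18 and passed (adjusted p = 0.0470) without TWEAK and NIK SMI1 24 h sample 3, and it lay between -0.18 and -0.057 with 1 sample left out. Against vehicle it was lower by 15.4% at 6 h (adjusted p = 0.00624, and 0.0701 without TWEAK and NIK SMI1 6 h sample 1) and differed by 0.08 ± 0.06 at 24 h (adjusted p = 0.424). Tfap2b had 8.04, 9.10 and 10.4 CPM at 6 h and 11.6, 12.8 and 13.3 CPM at 24 h, with differences from TWEAK of -0.15 ± 0.09 and 0.00 ± 0.08. In the comparison of TWEAK and NIK SMI1 with vehicle, 4 of the 6 tested factors were called at 6 h (13.9% of all genes) and 3 at 24 h (17.9%).

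The islet reads described above moved with these 24 h groups, and their part in the results was not tested. With TWEAK 24 h sample 2 alone, which like the NIK SMI1 samples had almost no islet reads, the NIK SMI1 difference was 0.36 for Pax8 (adjusted p = 0.000408), 0.34 for Grhl2 (adjusted p = 0.000127) and 0.16 for Pax2 (adjusted p = 0.300). With sample 1 alone the differences were 0.30 (adjusted p = 0.00713), 0.28 (adjusted p = 0.00170) and 0.27 (adjusted p = 0.0746). The TWEAK effect at 24 h was called for Pax2, Pax8, Gata3 and Grhl2 with either sample. These fits assume that the lone sample varies like the other groups.

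The third comparison asked whether the factors changed with time alone. Between vehicle at 24 h and vehicle at 6 h, 2 of 6 factors were called, beside 29.9% of all genes. Pax8 rose by 19.0% (0.25 ± 0.05, adjusted p = 0.000139) and Pax2 by 11.4% (0.16 ± 0.06, adjusted p = 0.0447). The Pax2 call was lost in 7 of the 18 fits that left out 1 sample, with adjusted p = 0.103 and 0.193 without vehicle 6 h samples 1 and 2, 0.0743, 0.0728 and 0.143 without vehicle 24 h samples 1, 2 and 3, 0.0518 without TWEAK 24 h sample 3 and 0.0522 without TWEAK and NIK SMI1 24 h sample 2. It was also lost with DESeq2 (0.0586) and with DESeq2 size factors in edgeR (0.0560). Grhl2 (0.05 ± 0.04, adjusted p = 0.370), Tfap2b (0.23 ± 0.09, adjusted p = 0.0584), Emx2 (-0.15 ± 0.06, adjusted p = 0.0553) and Gata3 (-0.28 ± 0.32, adjusted p = 0.579) did not pass. The decrease of Emx2 passed with DESeq2 (adjusted p = 0.0384), with its size factors in edgeR (0.0417), with no filter on low counts (0.0271), and without vehicle 6 h sample 3 (0.0438), vehicle 24 h sample 1 (0.0173) or TWEAK and NIK SMI1 24 h sample 1 (0.0330) or 3 (0.0431). The increase of Tfap2b passed with library size alone (0.0134), and without vehicle 24 h sample 1 (0.0167) or TWEAK and NIK SMI1 6 h sample 1 (0.0459) or 3 (0.0443). The difference in the NIK SMI1 effect between 24 h and 6 h was called for none of the 6 factors by edgeR, beside 4.73% of all genes, and Grhl2 alone had an unadjusted p below 0.05 (0.12 ± 0.05, adjusted p = 0.217).

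The 6 groups can be placed in order of mean CPM for each factor. CPM used total counts, whereas the tests also applied normalization factors, so gaps between time points can differ from the tested changes. For Grhl2 the order from low to high was TWEAK 24 h, TWEAK 6 h, TWEAK and NIK SMI1 6 h, TWEAK and NIK SMI1 24 h, vehicle 6 h and vehicle 24 h. In CPM, the samples of neighbours overlapped at the 2 TWEAK groups and at the 2 NIK SMI1 groups, and nowhere else. The gap between the 2 vehicle groups was not called in the fit (0.05 ± 0.04 on the log2 scale, adjusted p = 0.370, edgeR). For Pax2, TWEAK 6 h was lowest (30.3 ± 2.73 CPM) and vehicle 24 h highest (50.4 ± 1.36 CPM), each apart from its neighbour, while the 4 groups in between overlapped their neighbours. For Pax8 the lowest were TWEAK 6 h (29.3 ± 0.862 CPM) and TWEAK and NIK SMI1 6 h (35.5 ± 1.28 CPM), and the highest were TWEAK and NIK SMI1 24 h (49.4 ± 0.816 CPM) and vehicle 24 h (49.4 ± 1.42 CPM), which overlapped each other. Gata3 fell into vehicle, NIK SMI1 and TWEAK pairs, whose 2 time points overlapped in each case and which were otherwise apart. In Emx2 and Tfap2b every pair of neighbours overlapped.

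Among 12580 tested genes with a symbol and a mean of at least 1 CPM, the genes whose log2 CPM followed each factor most closely over the 18 samples were listed. These correlations are descriptions, since the samples of a group share their treatment. Grhl2 was closest to Ppl (periplakin, a plakin of the cornified envelope and desmosomes, r = 0.98) and Hspa2 (r = 0.98). Pax2 was closest to Atp6v0a1 (a subunit of the vacuolar proton pump, r = 0.97) and to Bmp7, a growth factor needed for nephron formation (r = 0.95). Pax8 was closest to Scd2 (stearoyl-CoA desaturase, r = 0.96) and Sparc (r = 0.96), Gata3 to Gm19765 (r = 0.97) and Arhgef3 (r = 0.96), and Tfap2b to Alg6 (r = 0.91) and Taf2 (r = 0.91). For Emx2 the closest genes were BC061237 (r = 0.78) and Grb14 (r = 0.77), so no gene followed it as closely.

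Relatives of the 8 factors were measured beside them. Of the other 7 Pax genes, only Pax9 passed the filter, and it was not called (log2 fold change under TWEAK -0.37 at 6 h and 0.05 at 24 h). Of 15 other paralogs, 6 passed. Under TWEAK at 6 h, 2 of them fell and 1 rose, and at 24 h 4 fell. Over all tested genes, 12.0% fell and 11.7% rose at 6 h, and 20.7% fell at 24 h. Gata6, a zinc finger factor of the same family as Gata3 at 7.48 RPKM over all samples, fell by 0.31 and 0.43 on the log2 scale (adjusted p below the threshold at both times), while Gata3 rose. Tfap2a, the relative of Tfap2b, fell by 0.26 and 0.33. Both relatives of Grhl2 were low and fell at 24 h, Grhl1 by 0.94 and Grhl3 by 1.79. Hnf4g, the relative of Hnf4a, rose 2.03-fold under TWEAK at 6 h (1.02 ± 0.32 on the log2 scale, adjusted p = 0.0210) and was lower with NIK SMI1 by 1.23, on 61 reads or fewer in any sample, and was not called at 24 h (0.12).

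The wider transcription factor lists moved in both directions, as the plot of the lists shows. Their counts stand beside shares over all tested genes of 11.7% risen and 12.0% fallen at 6 h. At 24 h these shares were 18.3% and 20.7%. Of 7 tested proximal tubule factors, 2 rose and 1 fell at 6 h, and 2 rose and 3 fell at 24 h. Maf, a leucine zipper factor, fell by 0.82 at 24 h. Of 8 distal nephron and collecting duct factors, 4 rose and 3 fell at 6 h, and 3 rose and 4 fell at 24 h. Tfcp2l1, a grainyhead-related factor of the collecting duct, rose by 0.67 and 0.62, and Mecom fell by 0.68 and 0.997. Hoxb7, the gene of that list with the highest level (23.7 RPKM), fell by 0.23 and 0.15. Of 17 kidney development factors, 5 rose and 5 fell at 6 h, and 7 rose and 4 fell at 24 h. In that list Sox11 rose by 0.71 and 0.48, Foxc1 fell by 0.64 and 1.03, and Eya1 fell by 0.59 and 0.66. Sox4, the most highly expressed (140.8 RPKM), rose by 0.30 and 0.47.

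**Figure D4:**
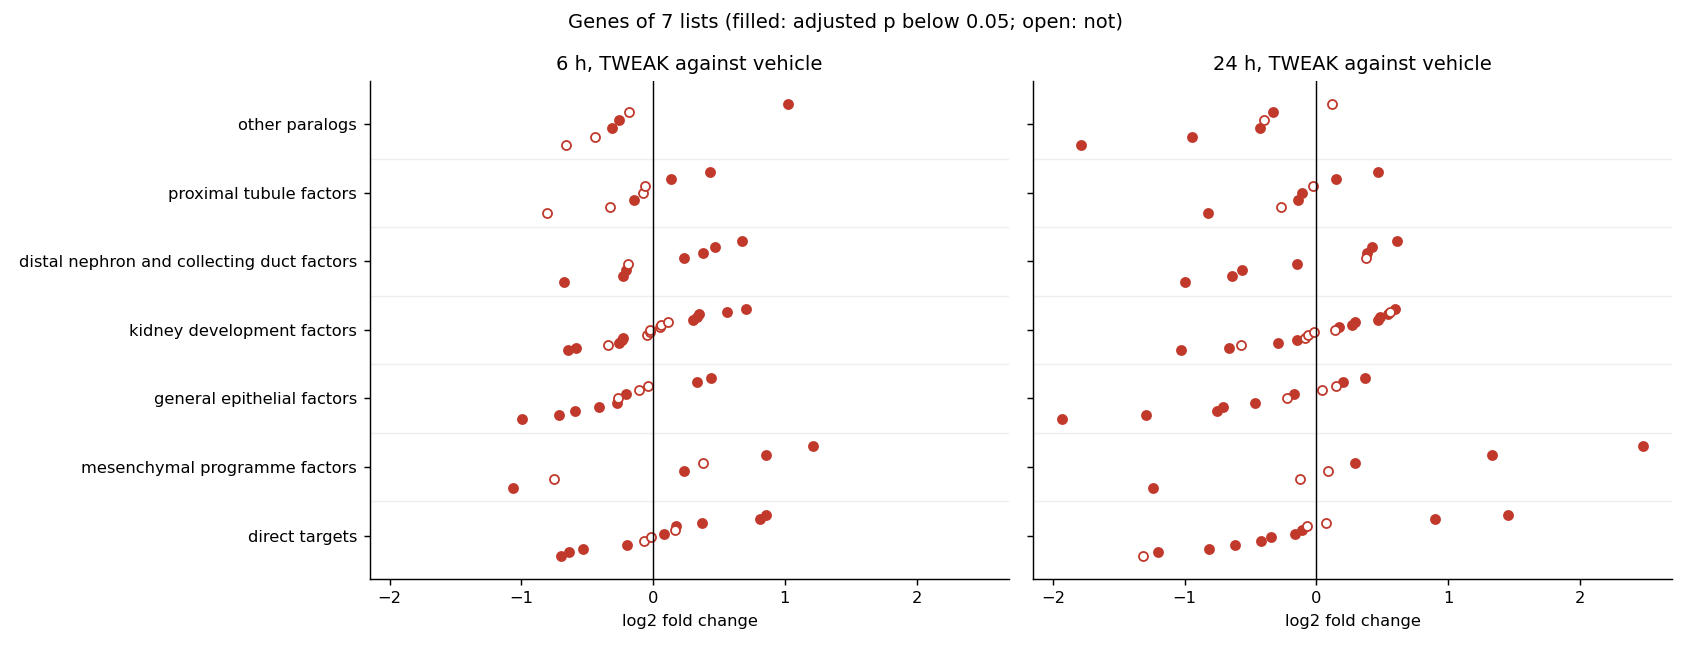
Log2 fold changes under TWEAK at 6 h (left) and 24 h (right) of the tested genes of 7 lists, 1 mark a gene spread vertically by rank; filled marks have an adjusted p below 0.05. The lists of nephron factors lie on both sides of 0. In the list of general epithelial factors the called genes farthest from 0, Foxa2 and Elf3, fell, while Foxa1 rose. The mesenchymal list also went both ways, since Zeb1, Snai1 and Zeb2 rose and Twist2 fell.

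Among general epithelial factors, which share the setting of Grhl2, 6 of 11 fell and 2 rose at each time point. For this and the lists that follow, 12.0% of all tested genes fell and 11.7% rose at 6 h. At 24 h, 20.7% fell and 18.3% rose. The median log2 fold change of the list was -0.27 at 6 h and -0.23 at 24 h, beside -0.00 and -0.01 over all genes. Foxa2 fell by 0.999 and 1.93, Elf3 by 0.71 and 1.29, Ovol2 by 0.60 and 0.71 and Ehf by 0.21 and 0.76, while Foxa1 rose by 0.44 and 0.37. With NIK SMI1 at 24 h, Foxa2 was higher than with TWEAK alone by 0.84 and Elf3 by 0.53. Of 6 mesenchymal programme factors, 3 rose and 1 fell at each time. Zeb1, a repressor of epithelial genes that stands in mutual repression with Grhl2, rose by 1.21 and 2.48 from a low level, and it was lower by 0.73 and 1.505 with NIK SMI1. Snai1 rose by 0.85 and 1.33, Zeb2 by 0.23 and 0.30, and Twist2 fell by 1.06 and 1.24. The epithelial markers moved beside these factors. Their summed level was 14540 ± 382 CPM under vehicle and 12720 ± 232 CPM under TWEAK at 6 h, and 13450 ± 136 and 10620 ± 104 CPM at 24 h. With NIK SMI1 it was 14310 ± 493 and 12140 ± 49.5 CPM. Most of the sum came from Krt18 and Krt7 (4735 and 4262 CPM under vehicle at 6 h). At 6 h the 4 keratins fell, Epcam and Cdh1 rose, and Muc1 was not called. At 24 h 6 of the 7 fell and Epcam rose. Markers of other cells and of the proximal tubule were also compared. At 6 h, 1 of 4 tested fibroblast genes fell (Col1a1, by 0.34), and the summed level of that list was 17.8 to 19.5 CPM under vehicle and 14.6 to 15.4 CPM under TWEAK, without overlap. In the podocyte list 2 of 3 fell (Synpo by 0.74 and Podxl by 0.18), in the proximal tubule list 1 of 6 (Cubn, by 0.57), and in the islet, endothelial, leukocyte and distal tubule lists none of the tested genes was called by edgeR or had an unadjusted p below 0.05. At 24 h the fibroblast list had 1 fall among 4 tested genes, the podocyte list 2 among 3 (Synpo by 0.97 and Podxl by 0.45), the proximal tubule list 2 among 6 and the islet list 5 among 8. The podocyte list summed to 278.7 to 446.2 CPM, made up mostly of Podxl (334.8 CPM in vehicle at 24 h) and Synpo (71.3 CPM). The single endothelial gene (Cdh5, at most 18 reads) rose at 24 h, and the single leukocyte and distal tubule genes were not called. The part of these markers in the results was not tested.

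Finally, 12 of 15 genes named in textbooks as direct targets of the factors were tested. At 6 h 5 rose and 4 fell, beside 11.7% and 12.0% of all tested genes. At 24 h 2 rose and 7 fell, beside 18.3% and 20.7%. Targets of 1 factor did not move together. Among genes attributed to Grhl2, Epcam (an epithelial adhesion molecule) rose by 0.85 and 0.90 although Grhl2 fell, Rab25 (a small GTPase of apical recycling) fell by 0.20 and 0.61, and Cdh1 (E-cadherin) moved by 0.08 and -0.11. Among genes attributed to Pax2, Pax8 or Gata3, the growth factor Gdnf rose by 0.81 and 1.46, its coreceptor Gfra1 fell by 0.70 and 0.81, and its receptor Ret fell by 0.64 and 0.16. Cdh16 (kidney cadherin), attributed to Pax8, fell by 0.42 at 24 h and was higher with NIK SMI1 by 0.54. Cldn4, the target with the highest level (1272 RPKM), rose by 0.17 at 6 h and was not called at 24 h (0.08). Of the Hnf4a targets, Apoh and Apom failed the filter. Ttr was measured on 32 reads or fewer and was called lower with NIK SMI1 at 24 h, in the samples without islet reads, and islet cells also express Ttr.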

How the data were processed

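Expression was measured by RNASeq (TruSeq RNA v2) in 18 samples of primary murine RPTEC. HTSeqGenie with GSNAP and mouse build 37 was used by the authors. Their deposited counts are unnormalized numbers of unique reads in the exons of a gene, and they also deposited RPKM and exonic lengths. Tests used the counts, and RPKM served only to compare genes. Symbols and positions came from RefSeq GRCm38.p6 by gene identifier (31049 of 36528 matched), promoter windows from the same assembly, and no position was converted.

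Genes with more than 10 reads in at least 4 samples (15521) entered 1 model of 6 groups under edgeR 4.0.16 and R 4.3.3 (TMM, glmQLFit, glmQLFTest), with Benjamini-Hochberg adjustment over all of them and a threshold of 0.05, and DESeq2 1.42.0 was an alternative. The code was tested on simulated data. SE and 95% intervals come from the F statistic. CPM used total counts. TMM factors were 0.964 to 1.03, and each pair of samples within a group differed by more than sampling noise (chi-square per gene 2.20 to 10.0). The highest values, 9.26 and 10.0, were those of vehicle 6 h sample 1 with samples 2 and 3. All other pairs had 5.08 or less. Numbers given to samples only name them.

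The 8 factors, the lists of relatives, transcription factors, targets and markers, and the tests were chosen with earlier results of these data known. All 8 factors are named. From each list and comparison, up to 4 called genes with the largest change and the gene with the highest level could be named. Rab25, Cdh1, Cdh5, Podxl, Apoh, Apom, Gm13415, Emx2os and the markers at 0 were named after their values were seen. Some genes of the lists are counted with their list and not reported by name here.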

Additional observations from a re-analysis of the deposited data

Results flagged for a closer look

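Of the 6 tested factors, 2 had a TWEAK effect that differed between 24 h and 6 h by a test of the difference itself, the interaction contrast in edgeR. The same contrast called 8.91% of all tested genes. For Emx2 the log2 fold change was higher by 0.37 ± 0.08 at 24 h (adjusted p = 0.00378), with TWEAK below vehicle in 3 of 3 samples at 6 h and above it in 3 of 3 at 24 h. The Emx2 decrease at 6 h, taken by itself, lost its call in 5 of the 18 fits that left out 1 sample. For Grhl2 the difference was -0.17 ± 0.05 (adjusted p = 0.0402), with TWEAK below vehicle in 3 of 3 samples at both times. This Grhl2 call was lost in 8 of the 18 fits that left out 1 sample. Emx2os, the antisense neighbour of Emx2, was not called under TWEAK at 6 h (log2 fold change -0.11 ± 0.09, adjusted p = 0.457) or at 24 h (-0.06 ± 0.09, adjusted p = 0.655).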

How the results depend on the processing

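No paired analysis was possible because the labels give no replicate numbers. Of 972 log2 fold changes of a factor refitted without 1 sample, 914 kept their direction and their side of the threshold, 27 lost a call, 13 gained one and 18 changed sign, all of them uncalled. Of 306 under DESeq2, its size factors in edgeR, library size alone, no filter, filterByExpr or the time points compared alone, 292 kept both. In none of these refits did the TWEAK calls of Pax2, Pax8, Gata3 and Grhl2 at an adjusted p below 0.05 change at either time. Asking in addition for a change above 1.5-fold left 1 factor, Gata3, in TWEAK against vehicle and in TWEAK and NIK SMI1 against vehicle at both times, and 0 factors for NIK SMI1 under TWEAK at 6 h and at 24 h, for vehicle over time and for the difference of the TWEAK effects, because the other called changes are smaller than that. For vehicle over time, library size alone gave 4 called factors in place of 2 (Tfap2b and Grhl2 added), no filter gave 3 (Emx2 added), DESeq2 and its size factors gave 2 with Emx2 in place of Pax2, and leaving out 1 sample gave 1 to 3. For the difference of the TWEAK effects, 1 factor (Emx2) in place of 2 was called with library size alone, with no filter, and with TWEAK 24 h sample 2 or sample 1 alone (both chosen after seeing the data), and leaving out 1 sample gave 1 to 2. The cause was not tested.

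The uncalled values that changed sign all lay near 0. For Tfap2b, NIK SMI1 under TWEAK at 24 h gave 0.001 in the reported fit, -0.00031 with filterByExpr, -0.0070 with the 24 h samples alone, -0.052 with TWEAK 24 h sample 1 alone and -0.042 to 0.065 without 1 sample. Its difference of the TWEAK effects was -0.054 with TWEAK 24 h sample 2 alone and -0.086 to 0.078 without 1 sample, and its difference between TWEAK and NIK SMI1 and vehicle at 6 h was -0.055 to 0.12. The difference of the TWEAK effects was -0.056 for Pax2 with TWEAK 24 h sample 1 alone, and without 1 sample -0.045 to 0.092 for Pax2 and -0.058 to 0.34 for Gata3. Without 1 sample, Pax8 with TWEAK and NIK SMI1 against vehicle at 24 h was -0.028 to 0.0094, and the Emx2 difference of the NIK SMI1 effects was -0.099 to 0.024. Depth limits what can be said of Hnf4a and Lhx1, and of Gata3 under vehicle, which rests on 4 to 21 reads a sample.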
